A study of Homo sapiens with 24 samples.

Results

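Glypicans are heparan sulfate proteoglycans held on the cell surface by a lipid anchor, and the heparan sulfate 6-O-sulfotransferases are Golgi enzymes that add sulfate to the glucosamine units of the sugar chains that glypicans and other core proteins carry. The human genome encodes 6 glypicans, GPC1 to GPC6, and 3 of these enzymes, HS6ST1 to HS6ST3, and all 9 genes are described here, out of 28278 genes in the count table. GPC4 and HS6ST3 were chosen by their measured change from day 0 in these same libraries, where both were much higher after p63 induction, so their changes from day 0 are given as a description with no test. The other 7 genes were taken for their family membership, to show whether the family shares the response, and were tested. Of the 9 genes, 8 passed the filter on low counts and HS6ST2 did not.

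Heparan sulfate chains bind fibroblast growth factors, Wnts, hedgehog proteins and other ligands, and the pattern of sulfate groups along the chain, 6-O-sulfate among them, sets which ligands bind. Glypicans hold these ligands at the plasma membrane and can present them to receptors or keep them away. p63, the product of TP63, is a transcription factor of squamous epithelia made as TAp63, which has an N-terminal transactivation domain, or as ΔNp63, which lacks it.

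The cells were TYUC-1, an established human line from a neuroendocrine carcinoma of the esophagus that grows in suspension. A doxycycline-inducible construct drove TAp63 in one derived line and ΔNp63 in the other, and RNA was sequenced after 0, 1, 3 or 6 days of doxycycline at 1 µg/ml, with DMSO for the rest of a 6 day course. Each of the 8 groups had 3 libraries, 24 in all. Whether the lines are clones is not given in the sources used here, and cells that received doxycycline but carried no p63 construct are not part of the comparison, so p63 induction and doxycycline exposure cannot be told apart. A treatment label on every sample also names EPZ-6438, an EZH2 inhibitor, for the same number of days as the doxycycline, while the titles and induction labels name p63 alone. If the inhibitor was present, its effect and that of p63 cannot be told apart either.

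TP63 was at 2.90 to 4.94 CPM (a count divided by the library's TMM-scaled size) in the 6 day 0 libraries and at 69.2 to 1033 CPM in the 18 induced ones. The 69.2 CPM belonged to replicate 3 of ΔNp63 day 1, which also had the lowest total (1530847 counts, against 6375963 to 22019974 in the other 23 libraries) and 2666 CPM summed over 6 erythroid markers, against at most 48.2 CPM elsewhere. Results that rest on this library are given with and without it. Of 9 neuroendocrine markers, 3 (INSM1, CHGA and SCG2) averaged under 1 CPM over the libraries.

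The 2 genes picked for their response lie on different chromosomes. GPC4 spans chrX:133300103-133415489 on the minus strand (hg38, as in the count table) and overlaps no other counted gene, with GPC3 120 kb and HS6ST2 339 kb away on the same strand. HS6ST3 spans chr13:96090839-96839562 on the plus strand and contains MIR4501, which had 0 counts in every library. Fragments were counted over whole transcript spans, introns included, and exons of the GENCODE v29 principal transcript make up 4.30% of the GPC4 span and 1.04% of the HS6ST3 span, so the values below are not a measure of spliced mRNA alone. The RefSeq promoter windows of both genes (GRCh38.p14, 250 bases before to 50 after the start) are shown because both RNAs were higher after induction. Capitals mark each match to CNNGNNNNNNCNNG, the spacing of the C and G bases in a p53-family response element, which reads the same on both strands. The windows are chrX:133415440-133415739, minus strand, for GPC4 and chr13:96089857-96090156, plus strand, for HS6ST3. For GPC4 the RefSeq start is also the start of the counted span, but for HS6ST3 it lies 732 bases before it, so that whole window ends 683 bases before the counted span begins.
GPC4: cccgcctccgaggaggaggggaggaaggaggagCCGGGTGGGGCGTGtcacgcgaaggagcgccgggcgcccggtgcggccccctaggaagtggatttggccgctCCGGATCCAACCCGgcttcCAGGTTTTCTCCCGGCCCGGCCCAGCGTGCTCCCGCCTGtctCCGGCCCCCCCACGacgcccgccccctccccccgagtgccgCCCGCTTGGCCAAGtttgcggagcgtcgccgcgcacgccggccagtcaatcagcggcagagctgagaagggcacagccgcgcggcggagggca
HS6ST3: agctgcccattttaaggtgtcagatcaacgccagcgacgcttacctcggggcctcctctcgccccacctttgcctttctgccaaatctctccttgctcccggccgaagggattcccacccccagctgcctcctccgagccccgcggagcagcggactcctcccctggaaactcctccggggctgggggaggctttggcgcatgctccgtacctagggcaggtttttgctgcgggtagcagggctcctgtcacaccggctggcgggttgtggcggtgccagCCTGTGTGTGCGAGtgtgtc

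The GPC4 window held 9 matches in 5 separate stretches, starting between positions -217 and -43 from the RefSeq start site, and the HS6ST3 window held 1, at position 31 from its own. This loose pattern occurred in 74.0% of 35114 RefSeq promoters of the same length, and 2.66% had at least as many matches as GPC4. A high number was not particular to GPC4. Among the other 6 members with a RefSeq promoter, GPC1 had 11 matches, HS6ST1 7, GPC5 3, GPC2 2, HS6ST2 1 and GPC6 0. GPC4's window was 74.7% G or C, above 89.7% of promoters, and HS6ST3's was 65.0%, where the median promoter had 58.7%. The stricter CATGNNNNNNCATG, found in 0.373% of promoters, was in neither window, nor in those of the other 6 members with a RefSeq promoter. CATG alone, held by 54.9% of promoters, occurred once in the HS6ST3 window, at position -51, once in that of GPC6 and 4 times in that of HS6ST2. A match is a string of letters and not a measured p63 site.

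GPC4, the glypican with the largest change at day 6 in both lines, was close to undetected before induction in both lines and higher at every later day. In the TAp63 line its level was 0.308, 0 and 0.106 CPM in replicates 1, 2 and 3 at day 0 and 0.389, 1.45 and 0.787 CPM at day 1. It was 6.52, 7.98 and 8.22 CPM at day 3 and 19.4, 21.8 and 18.2 CPM at day 6. Every library of a later day was above every library of the day before it, so the 4 groups did not overlap. Fitted log2 changes from day 0 were 3.23 ± 0.67 (SE) at day 1, 6.25 ± 0.59 at day 3 and 7.63 ± 0.59 at day 6. Since day 0 rested on 4 counts over the 3 libraries, the size of these folds is poorly bounded: pooled over libraries, day 6 (816 counts) was 230 times day 0 with a 95% interval of 89.5 to 847 that covers counting error only. Day 6 against day 3 rests on more counts and was 2.61 times (2.28 to 2.99).

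In the ΔNp63 line GPC4 was at 0, 0.114 and 0.197 CPM at day 0 and at 0.723, 0.498 and 2.0 CPM at day 1. It was at 3.42, 3.9 and 3.89 CPM at day 3 and at 3.12, 2.37 and 3.16 CPM at day 6. All induced groups lay above day 0, but here the day 6 libraries all lay below the day 3 libraries, with a pooled ratio of 0.751 (0.580 to 0.968). The 2.0 CPM at day 1 is 3 counts in the shallow library, without which the day 1 mean was 0.611 in place of 1.07 CPM. Fitted log2 changes were 2.59 ± 0.70, 4.98 ± 0.57 and 4.59 ± 0.59 on days 1, 3 and 6.

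The lines therefore started from GPC4 levels that overlapped and ended apart. TAp63 libraries were higher without overlap at day 3, by a pooled ratio of 2.05 (1.70 to 2.47), and at day 6, by 7.11 (5.73 to 8.91). Groups of the lines did not overlap for 13.5% of the 15642 tested genes at day 3 and for 14.6% at day 6. TP63 itself was lower in the TAp63 line on those days, at 452 to 692 CPM against 768 to 1033 CPM, so the line with less TP63 RNA had more GPC4 RNA. The 2 constructs' RNA may be counted with unequal efficiency over the TP63 span, which was not tested.

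HS6ST3, the 6-O-sulfotransferase with the larger change of the 2 that passed the filter on low counts, was already detected at day 0 and changed by a few fold. In the TAp63 line it was at 1.69, 1.11 and 1.54 CPM at day 0 and 2.88, 2.43 and 3.02 CPM at day 1. It was at 3.62, 3.40 and 3.08 CPM at day 3 and 5.86, 6.57 and 7.50 CPM at day 6. The groups stood in the order of days without overlap, though the lowest day 3 library was only just above the highest of day 1. Log2 changes from day 0 were 0.96 ± 0.21 at day 1, 1.25 ± 0.21 at day 3 and 2.22 ± 0.21 at day 6.

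In the ΔNp63 line HS6ST3 was at 2.72, 2.78 and 3.15 CPM at day 0 and 4.12, 4.26 and 4.66 CPM at day 1. It was at 6.30, 5.97 and 7.09 CPM at day 3 and 8.03, 7.19 and 5.37 CPM at day 6. All induced libraries were above day 0, and days 3 and 6 overlapped. Log2 changes were 0.57 ± 0.20, 1.16 ± 0.19 and 1.26 ± 0.19 at days 1, 3 and 6. The line difference was opposite to that of GPC4. The TAp63 line was lower without overlap on the first 3 sampled days, with pooled ratios of 0.474 (0.345 to 0.645), 0.634 (0.493 to 0.812) and 0.528 (0.428 to 0.647), and the lines overlapped at day 6. The share of tested genes whose lines did not overlap was 5.31% at day 0 and 5.24% at day 1.

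The responses thus differed in shape. GPC4's change from day 0 to day 6 was larger in the TAp63 line by 3.04 ± 1.09 on the log2 scale and HS6ST3's by 0.96 ± 0.28. For HS6ST3 the lines differed at day 0 and overlapped at day 6, whereas for GPC4 they overlapped at day 0 and differed at day 6. Across the 24 libraries log2 CPM of the 2 genes had a Pearson r of 0.72, and r with TP63 was 0.78 for GPC4 and 0.76 for HS6ST3. These libraries share lines, days and replicate numbers, so the r values describe the time course only. Both genes were picked for being higher after p63 induction, so positive r values were built in by that choice. The shallow library is included, and these r values are not given without it.

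**Figure D1:**
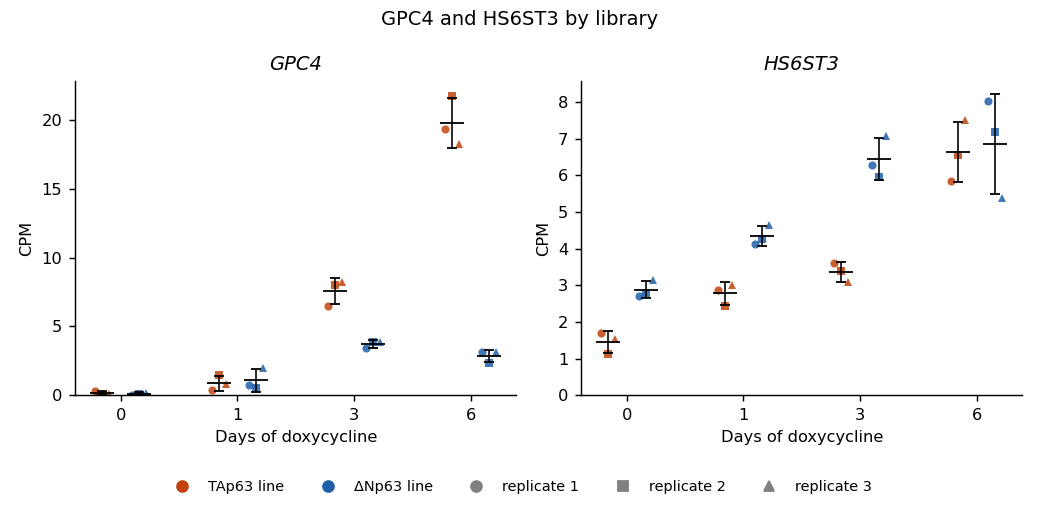
CPM (y axis, from 0) of GPC4 and HS6ST3 in each of the 24 libraries against days of doxycycline, with the mean (bar) and SD of each group of 3. GPC4 in the TAp63 line ends at 18.2 to 21.8 CPM, above all other groups, while HS6ST3 reaches overlapping levels in both lines at day 6.

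None of the other 7 genes passed the edgeR quasi-likelihood test at a Benjamini-Hochberg adjusted p under 0.05 in any comparison with day 0, at day 0 between lines, or in the difference of the day 6 responses. The share of all 15642 tested genes called was 0.121%, 0.435% and 0.441% at days 1, 3 and 6 in the TAp63 line, 0.0959%, 2.2% and 2.03% in the ΔNp63 line, 0.0128% between lines at day 0 and 0.0831% for the difference of responses, so 0 of 6 tested genes is close to what those shares give. At an unadjusted p under 0.05 the counts were 0 at each TAp63 day and 3, 2 and 2 at ΔNp63 days 1, 3 and 6, against 1.98%, 4.68% and 4.09% of all genes in the TAp63 line and 12.2%, 12.3% and 9.33% in the ΔNp63 line. The 3 at ΔNp63 day 1 were GPC2, GPC6 and HS6ST1. Within that group the shallow library held the extreme value of each, at 6.65, 53.9 and 14.6 CPM. Same-numbered libraries deviated together, however, and a fit with the replicate number as a block and without the shallow library called GPC1, GPC2 and GPC5 at ΔNp63 day 3 and GPC1 and GPC2 at day 6. That fit called 23.5% and 14.1% of all 15783 genes it tested in those comparisons. It called none of the 6 genes in the TAp63 line, where it called 0.887%, 4.57% and 3.6% of all genes at days 1, 3 and 6, none at ΔNp63 day 1 (0.849% of all genes) and none between the lines at day 0 (0.171%).

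GPC1 is a broadly expressed glypican and had higher values after induction in the ΔNp63 line. It was at 16.2, 19.8 and 13.7 CPM at day 0, 24, 22.6 and 20.4 CPM at day 3 and 27, 28 and 22.4 CPM at day 6. Day 3 and day 6 both lay above day 0 without overlap, while day 1 (15.4, 17.9 and, in the shallow library, 3.99 CPM) did not. The log2 change was 0.43 ± 0.24 at day 3 and 0.64 ± 0.24 at day 6, with adjusted p of 0.513 and 0.265 by edgeR. With the replicate block alone, which called 6.89% of all genes at day 3 and 4.56% at day 6, the day 6 adjusted p was 0.0347, and with the block and without the shallow library the values were 0.00175 at day 3 and 3.38e-05 at day 6. In the TAp63 line GPC1 was at 15 to 17 CPM at day 0 and 15.3 to 19.6 CPM at day 6, which overlap, but at 18.1 to 20.6 CPM at day 3, above day 0 without overlap (log2 change 0.23 ± 0.24, adjusted p 1). The difference between the lines' day 6 responses was -0.57 ± 0.34 (TAp63 minus ΔNp63), with an adjusted p of 1 in the fit of all libraries and 0.0320 with the block and without the shallow library, where 1.87% of all genes were called. A share of 22.6% of the GPC1 span is covered by LOC100130449 and MIR149, LOC100130449 on the opposite strand, and fragments that overlapped 2 genes were left out of the counts, so GPC1's values come from the rest of its span.

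GPC2, a glypican best known from the developing nervous system and from neuroblastoma, was lower after induction in the ΔNp63 line. It was at 14.7, 14.1 and 12.3 CPM at day 0, 9.97, 10.5 and 8.65 CPM at day 3 and 9.51, 9.20 and 9.01 CPM at day 6. Every library of days 3 and 6 was below every day 0 library, as were those of day 1 (6.65 to 12 CPM, the lowest in the shallow library). The log2 change was -0.50 ± 0.15 at day 3 and -0.57 ± 0.15 at day 6, with edgeR adjusted p of 0.108 and 0.0635. The block brought these to 0.0232 and 0.0144, and the block without the shallow library to 0.00157 and 0.00103. In the TAp63 line the values were 12.6 to 14.5 CPM at day 0 and 10.9 to 11.8 CPM at day 3, lower without overlap (log2 change -0.26 ± 0.15, adjusted p 1). At day 6 they were 10.5 to 12.7 CPM, which overlaps day 0, a log2 change of -0.23 ± 0.15 (adjusted p 1), and the difference between the lines' responses of 0.34 ± 0.22 did not pass (adjusted p 1, and 0.465 with the block and without the shallow library).

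GPC5 and GPC6 lie 360 kb apart on chromosome 13, the chromosome of HS6ST3, which begins 1683 kb beyond GPC6. GPC5, at chr13:91398621-92867234, had the highest CPM of the 9 genes, 64.9 to 181, over the longest span. In the ΔNp63 line it was at 75.0, 66.4 and 105 CPM at day 0, 120, 148 and 155 CPM at day 3 and 92.8, 90.1 and 64.9 CPM at day 6. Day 3 was above day 0 and day 6 without overlap, and days 0 and 6 overlapped. The log2 change at day 3 was 0.78 ± 0.31 (edgeR adjusted p 0.281, and 0.00506 with the block and without the shallow library) and 0.01 ± 0.31 at day 6. TAp63 groups overlapped at all days, with replicate 3 the highest of its group in each of them.

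GPC6 was low, at 0.158 to 2.96 CPM, in 23 libraries. The remaining one was the shallow ΔNp63 day 1 library, which had 53.9 CPM, or 81 of the 394 GPC6 counts in the series. The fitted log2 change at ΔNp63 day 1 of 3.73 ± 1.21 (edgeR adjusted p 0.175) became -0.08 ± 0.85 without it. DESeq2 called this change with that library in (adjusted p 0.0226), in a comparison where it called 3.28% of the genes it gave an adjusted p.

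GPC3, a glypican known as an oncofetal antigen of liver cancer and the neighbour of GPC4, varied with the replicate number rather than the day. Replicate 1 was the highest of its group in 8 of 8 groups, with means over groups of 32.3, 17.4 and 13.1 CPM for replicates 1, 2 and 3. The erythroid marker sum was also highest in replicate 1 in 7 of 8 groups, with medians of 34.6, 6.28 and 0.866 CPM, and its part in GPC3 was not tested. GPC3 at day 6 differed from day 0 by -0.06 ± 0.56 in the TAp63 line and 0.31 ± 0.55 in the ΔNp63 line (adjusted p 1 in both, edgeR), and day 0 and day 6 overlapped in each.

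HS6ST1, the 6-O-sulfotransferase with a broad tissue distribution, passed the test in no comparison. It was at 35.6 to 53.4 CPM in the 23 libraries other than the shallow one, where it was at 14.6 CPM. At TAp63 day 3 it was above day 0 without overlap (log2 change 0.27 ± 0.19). At ΔNp63 day 1 it was below day 0 without overlap (log2 change -0.44 ± 0.19, edgeR adjusted p 0.331). The other libraries of that group, at 37.1 and 35.6 CPM, were also below the day 0 range of 40.3 to 46.8 CPM. At day 6 its log2 change was 0.09, with a 95% interval of -0.30 to 0.48, in the TAp63 line and 0.18 (-0.21 to 0.57) in the ΔNp63 line. HS6ST2 had 65 counts over the 24 libraries and was not tested. Its TAp63 libraries were at 0, 0.048 and 0.159 CPM at day 0 and 0.50, 0.375 and 0.556 CPM at day 6, which do not overlap, and rest on 4 and 19 counts (pooled ratio 5.36, 1.78 to 21.7). In the ΔNp63 line HS6ST2 went from 11 counts at day 0 to 3 at day 6 with overlapping libraries.

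**Figure D2:**
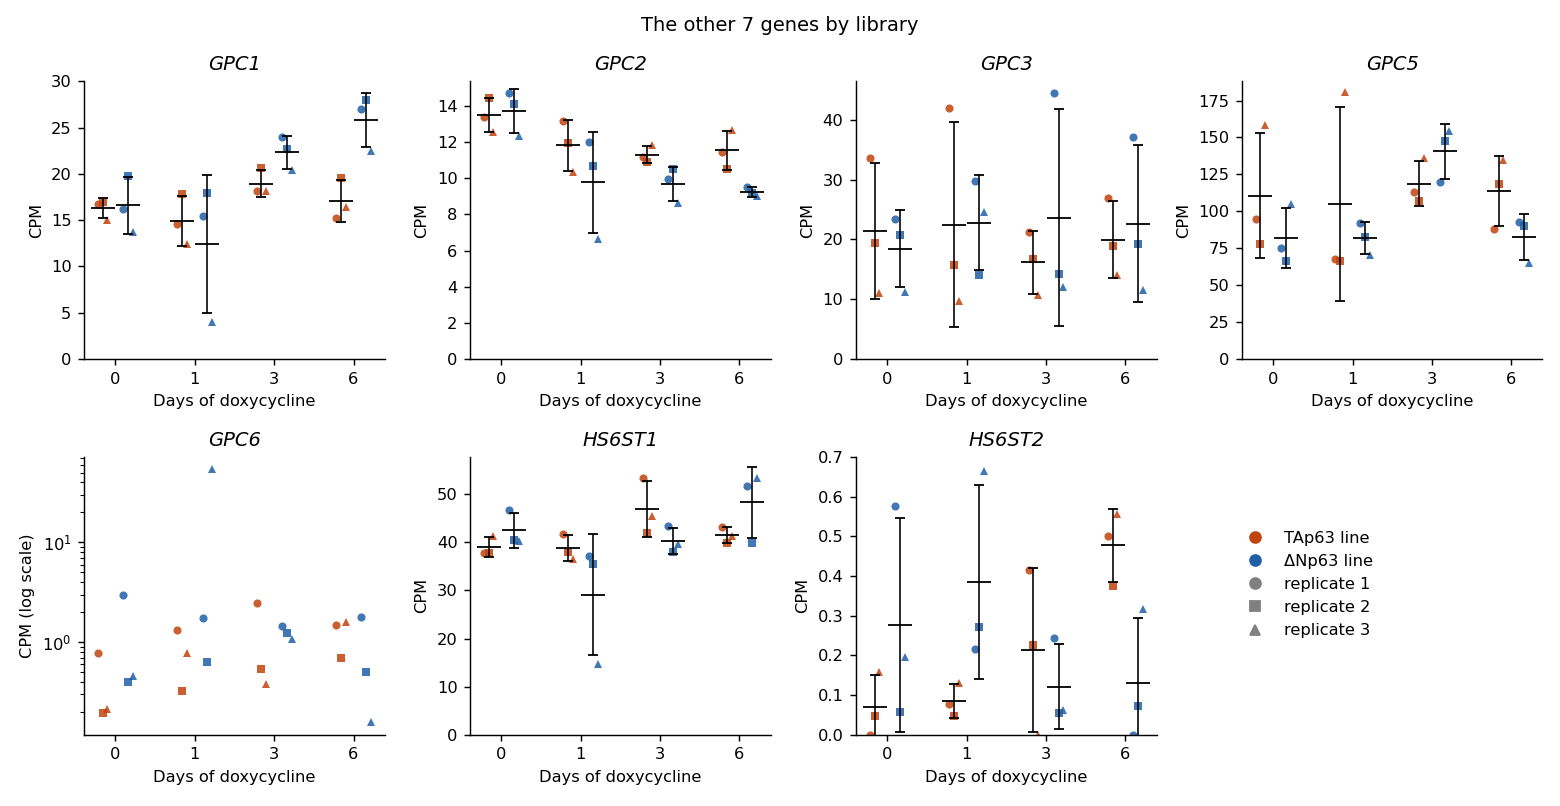
CPM of the other 7 genes in each library against days of doxycycline, with symbols for the replicate number and bars for mean and SD (GPC6 on a log axis, without bars, since 1 library at 53.9 CPM sets its day 1 value). GPC1 is higher and GPC2 lower at ΔNp63 days 3 and 6, and replicate 1 of GPC3 is the highest of every group.

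Counted as groups of 3 that did not overlap with day 0, the other 7 genes gave 0, 3 and 1 at days 1, 3 and 6 in the TAp63 line and 2, 3 and 2 in the ΔNp63 line. The 1 at TAp63 day 6 was HS6ST2, which is not among the tested genes and rests on 4 and 19 counts. Among all tested genes the shares without overlap were 6.21%, 13.3% and 11.5% in the TAp63 line and 8.94%, 23.5% and 17.7% in the ΔNp63 line. Median log2 changes over the 6 tested genes lay between -0.11 and 0.19 in the 6 comparisons, where the median over all genes was between -0.01 and 0.01. Relative to span length, HS6ST1, GPC2 and GPC1 had the highest values (0.764, 1.46 and 0.557 CPM per kb of span as means over all libraries). In the TAp63 line at day 6, GPC4 was at 0.171 and HS6ST3 at 0.00887 CPM per kb of span. HS6ST1, GPC2 and GPC1 were at 0.776, 1.48 and 0.527 in that group. Spans are mostly intron, and exons make up 32.6% of the GPC2 transcript span but 4.30% of that of GPC4. The order per kb of span is therefore not an order of spliced mRNA. With bulk RNA, more cells with the transcript and more RNA per cell cannot be told apart.

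**Figure D3:**
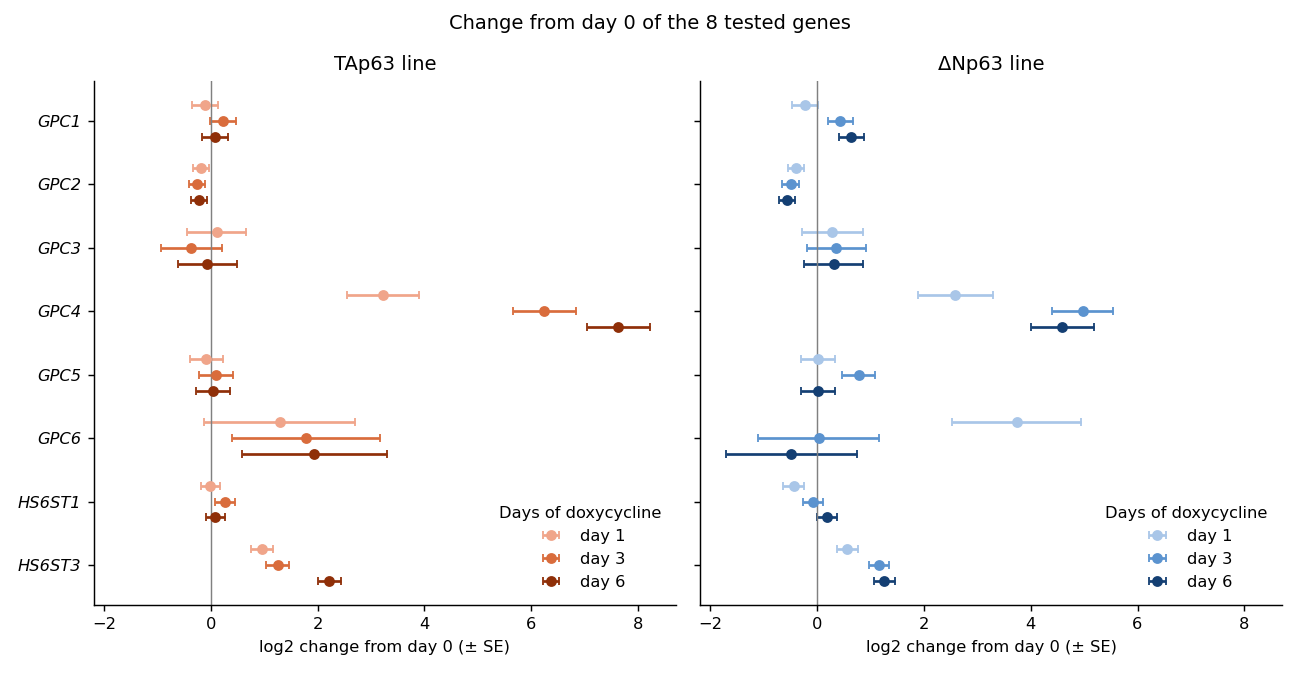
Log2 change from day 0 (x axis, ± SE of the edgeR fit) of the 8 genes that passed the filter, by line and day. GPC4 and HS6ST3 are right of 0 at all days in both lines, and GPC2 is left of 0 and GPC1 right of it at ΔNp63 days 3 and 6, with changes smaller in size than those of HS6ST3 on the same days.

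Among the other core proteins that carry heparan sulfate, SDC1, the syndecan of epithelial cells, rose in the ΔNp63 line. Its mean was 37.6 ± 4.19 CPM (SD, n = 3) at day 0, 63.1 ± 2.34 CPM at day 3 and 76.5 ± 9.65 CPM at day 6, log2 changes of 0.74 ± 0.18 and 1.02 ± 0.18 with edgeR adjusted p of 0.0259 and 0.00175. It was the only gene of the 8 in this list called at these days. With the block and without the shallow library, 5 of 8 were called higher at days 3 and 6 in the TAp63 line, where 3.2% and 2.95% of all genes were called higher. In the ΔNp63 line 4 were higher and 1 lower at day 3, against 12.2% and 11.3% of all genes, and 5 were higher at day 6, against 8.14%. The 5 at day 6, named after their values were seen, were SDC1, SDC2, SDC4, AGRN (agrin) and HSPG2 (perlecan) in both lines. SDC2, for example, had 241 ± 1.23 and 363 ± 17.3 CPM at TAp63 days 0 and 6 and 266 ± 21.5 and 441 ± 31.4 CPM at ΔNp63 days 0 and 6 (edgeR adjusted p 0.591 and 0.0686, and 3.56e-06 and 3.31e-08 with the block and without the shallow library). The list's median log2 change at day 6 was 0.36 in the TAp63 line and 0.42 in the ΔNp63 line.

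The enzymes that build and modify the chain gave no call in the fit of all libraries. None of the 11 linker and chain polymerisation enzymes passed the test in any comparison with day 0, and their median log2 change at day 6 was 0.04 and 0.08 in the TAp63 and ΔNp63 lines. EXT1 and EXT2, which together polymerise the chain, had day 6 log2 changes of -0.03 ± 0.18 and 0.09 ± 0.13 in the TAp63 line. Of the 13 other modifying enzymes 9 were tested and none passed. NDST1, which starts chain modification by N-sulfation, changed by 0.04 ± 0.11 and 0.17 ± 0.11 at day 6, and HS2ST1, the 2-O-sulfotransferase, by 0.01 ± 0.27 and -0.05 ± 0.27. The block without the shallow library called 3.2% of all genes higher and 1.37% lower at TAp63 day 3, and 2.95% higher at TAp63 day 6. In the ΔNp63 line it called 12.2% higher at day 3, and 8.14% higher and 5.94% lower at day 6. Beside those shares, it called 1 linker enzyme lower at TAp63 day 3 (XYLT1) and 1 higher at ΔNp63 days 3 and 6 (B4GALT7). Of the modifying enzymes it called GLCE higher at TAp63 day 6, GLCE and HS3ST6 higher at ΔNp63 days 3 and 6, and HS3ST3B1 lower at ΔNp63 day 6. GLCE, the C5-epimerase that acts before HS2ST1, was at 32.9 ± 2.16 and 45.7 ± 5.01 CPM at TAp63 days 0 and 6, with an edgeR adjusted p of 0.777 that became 0.00561 with the block and without the shallow library. SULF1 and SULF2, the extracellular sulfatases that remove 6-O-sulfate, had day 6 log2 changes of -0.28 ± 0.28 and 0.15 ± 0.24 in the TAp63 line and 0.13 ± 0.28 and 0.31 ± 0.24 in the ΔNp63 line, and neither passed. Of the 5 editing and release genes the block without the shallow library called HPSE (heparanase) higher at day 3 in both lines and at ΔNp63 day 6, and SULF1 higher at ΔNp63 day 3 (adjusted p 0.0495).

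Of the 11 sulfate and sugar donor genes, SLC26A2, the plasma membrane sulfate transporter, rose at ΔNp63 day 6. Its mean went from 21.5 ± 2.67 to 35.6 ± 5.36 CPM, a log2 change of 0.73 ± 0.19 with an adjusted p of 0.0445 in edgeR. None of the 8 lysosomal enzymes that degrade the chain passed in the fit of all libraries. With the block and without the shallow library 3 of 8 were higher at TAp63 days 3 and 6, 4 at ΔNp63 day 3 and 5 at ΔNp63 day 6, none lower. Over the 6 lists of heparan sulfate genes, 52 of 56 genes were tested, and that fit called 9 higher and 0 lower at TAp63 day 6 and 16 higher and 2 lower at ΔNp63 day 6, against 2.95%, 0.646%, 8.14% and 5.94% of all its genes in the same order. At day 3 it called 9 higher and 1 lower in the TAp63 line and 17 higher and 1 lower in the ΔNp63 line, against 3.2%, 1.37%, 12.2% and 11.3%.

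The target genes of ligands that heparan sulfate binds gave no call in the fit of all libraries: 0 of 7 tested Wnt feedback genes, 0 of 4 hedgehog targets and 0 of 9 FGF feedback genes in each of the 6 comparisons. Neither did the 13 tested chondroitin and dermatan sulfate enzymes. The block without the shallow library, which called 4.57% and 23.5% of all genes at day 3 in the TAp63 and ΔNp63 lines and 3.6% and 14.1% at day 6, gave calls in each of these lists. In the Wnt list 2 genes were lower at ΔNp63 day 3 and 1 at day 6, and in the hedgehog list 1 was lower at ΔNp63 day 6. The chondroitin list had 2 higher at TAp63 day 3 and 1 at day 6, and 4 higher and 1 lower at ΔNp63 day 3 and 3 higher and 1 lower at day 6. The FGF list had 1 higher at day 1 in each line, 1 higher and 2 lower at TAp63 day 3, 1 higher at TAp63 day 6, 1 higher and 3 lower at ΔNp63 day 3 and 2 lower at ΔNp63 day 6.

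At day 3 that fit called DUSP6, an ERK phosphatase induced by FGF signalling, higher and ETV4, a transcription factor induced by it, lower in both lines. The other FGF list genes it called lower at day 3 are not named here. With all libraries, the FGF list's median log2 change at day 3 was -0.28 in the TAp63 line and -0.27 in the ΔNp63 line. DUSP6 was at 26.1 ± 2.30 and 47.5 ± 7.57 CPM at TAp63 days 0 and 3 and at 25.7 ± 4.68 and 34.7 ± 3.55 CPM at ΔNp63 days 0 and 3 (adjusted p 4.47e-05 and 0.0119, and 0.833 and 0.740 by edgeR with all libraries). ETV4 was at 5.03 ± 1.80 and 2.51 ± 0.393 CPM at TAp63 days 0 and 3 and at 4.96 ± 0.986 and 2.45 ± 0.596 CPM at ΔNp63 days 0 and 3 (adjusted p 0.0109 and 0.000802, and 0.659 and 0.161 by edgeR with all libraries). At day 6 the block without the shallow library called DUSP6 higher in the TAp63 line alone and ETV4 lower in the ΔNp63 line alone.

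**Figure D4:**
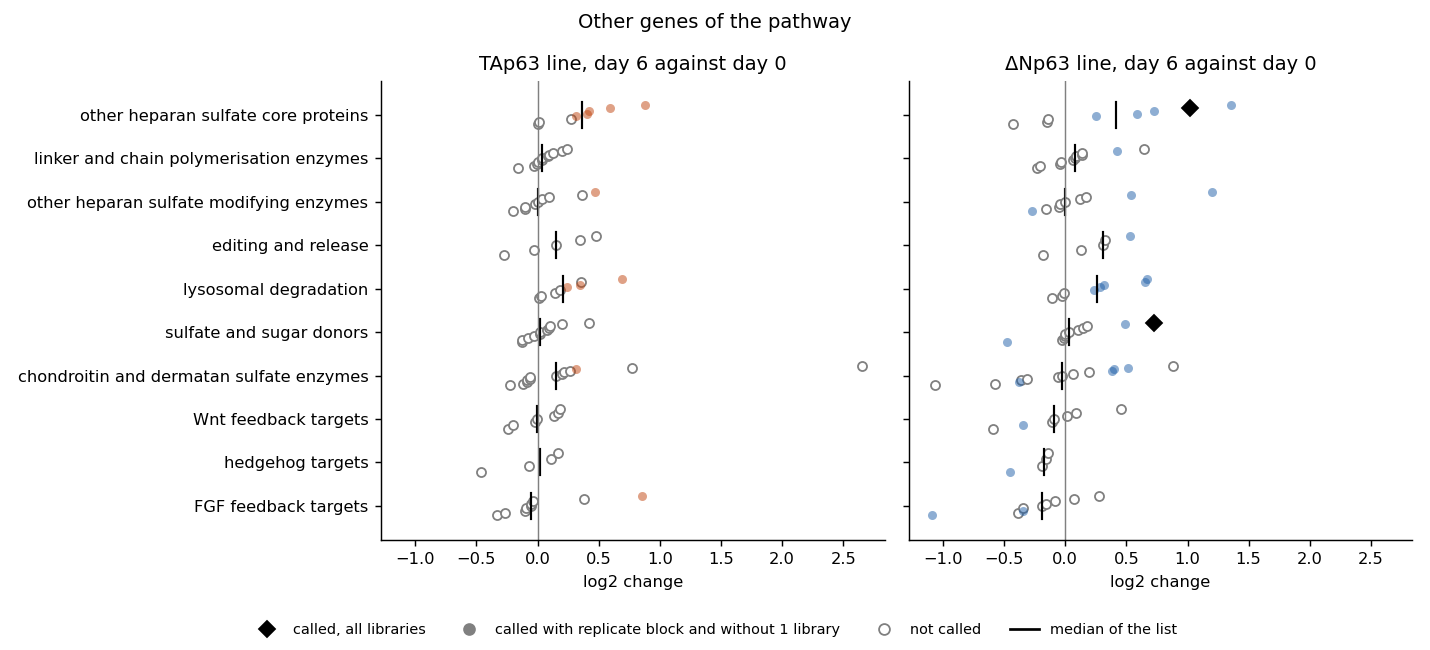
Log2 change at day 6 (x axis) of each tested gene of 10 pathway lists, by line, with the median of each list as a vertical bar. Black diamonds mark SDC1 and SLC26A2, the 2 genes called with all libraries, and filled circles those called with the replicate block and without 1 library.

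Within 1 Mb of GPC4 the table held 14 genes, of which 2 (MBNL3 and GPC3) were tested, 7 had 0 counts and none was called in a comparison with day 0. Within 1 Mb of HS6ST3 it held 13, of which 7 were tested and none was called, and the block without the shallow library called 1, DZIP1 (lowest adjusted p over the 6 comparisons 0.0474). In single comparisons among these 6, the fit of all libraries called 0.0959% to 2.2% of all genes. The block without the shallow library called 0.849% to 23.5%. The tested genes whose log2 CPM followed GPC4 most closely over the 24 libraries were SLC16A12 (r = 0.94), GSDMA (0.93) and SIPA1L2 (0.91). SIPA1L2 went from a mean of 0.101 to 12 CPM between TAp63 days 0 and 6 and from 0.123 to 7.37 CPM in the ΔNp63 line. For HS6ST3 they were LOC340357 (0.86), FOLR1 (0.84) and LOC441204 (0.84), with FOLR1 at 0.394 and 3.03 CPM at TAp63 days 0 and 6 and 0.563 and 3.34 CPM in the ΔNp63 line. Without the shallow library COL19A1 (0.94) came first for GPC4, ahead of SLC16A12 and GSDMA, and SCPEP1 (0.85) came second for HS6ST3, ahead of FOLR1, so SIPA1L2 and LOC441204 were no longer among the 3.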

How the data were processed

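RNA-seq counts of 24 libraries were taken as deposited, unnormalized whole-number counts per gene for 28278 genes, of which 6005 had 0 counts throughout. HISAT2 2.1.0 (to hg38), featureCounts 1.6.1 and DESeq2 are named, per the submitters' processing notes. Per the file header, featureCounts 2.0.0 counted read pairs over whole transcript spans of the UCSC refGene annotation, without strand, multi-mapping or multi-overlap options, so introns are included and fragments over 2 genes were left out.

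The analysis ran in R 4.3.3, with edgeR 4.0.16 as the main tool (filterByExpr, TMM, glmQLFit, glmQLFTest, 1 mean per group, 16 residual degrees of freedom) over 15642 genes, with Benjamini-Hochberg adjustment over all of them, and with DESeq2 1.42.0 as an alternative. CPM use TMM library sizes. SE is the absolute log2 change over the square root of F. The fit was tested on simulated counts for TAp63 day 6 against day 0 only. These had the same spread for all genes and no replicate effect or outlying library, so that check does not bear on those features. Members, comparisons and gene lists were chosen with earlier results of these data known. Beyond the 9 genes, TP63 and marker genes, the text names list genes called in a comparison with day 0, called neighbours within 1 Mb and the 3 genes most correlated (log2 CPM, prior count 2) with each responder; other names are examples, chosen with their values known. The 95% intervals of pooled ratios cover counting error only. The series calls its replicates biological but does not describe separate cultures, and p-values then reflect only library-to-library spread. All replicate pairs differed by more than sampling noise (lowest chi-square per degree of freedom 5.05). Replicate numbers come from the titles: deviations of same-numbered libraries correlated in 7 of 8 comparisons (r 0.23 to 0.69), but not at ΔNp63 day 1 (-0.29 to 0.24). Alternatives were RLE scaling, no filter, the replicate block, leaving libraries out and fitting only the groups compared.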

Additional observations from a re-analysis of the deposited data

How the results depend on the processing

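Log2 changes of GPC4 and HS6ST3 kept their direction from day 0 under every alternative run. Both genes were picked for that direction in these same libraries, so this is a description and not independent support. Leaving out each library in turn, GPC4 at TAp63 day 6 ranged from 6.84 to 8.37 and HS6ST3 from 2.05 to 2.32. Counts of the other 7 genes called, 0 in each comparison with all libraries, changed as follows. With the replicate block they became 1 at ΔNp63 day 3, 2 at day 6 and 2 over all days. Without replicate 3 of ΔNp63 day 1 they were 1, 2 and 2, and with both changes 3, 2 and 3, plus 1 (GPC1) for the difference of the day 6 responses. Fitting only the groups compared gave 1 (GPC5) at ΔNp63 day 3 and 1 over all days. DESeq2 gave 1 at each of ΔNp63 days 1, 3 and 6 and 2 over all days. Leaving out each library in turn gave 0 to 1 at ΔNp63 day 1 (GPC6, without replicate 1 or 2) and 0 to 2 over all days. The TAp63 counts stayed at 0 under every alternative run. The pairing of replicate numbers was not seen at ΔNp63 day 1, and the block called none of the 7 genes there. RLE scaling and no filter on low counts changed none of these counts.

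Over all genes, calls at TAp63 days 1, 3 and 6 went from 19, 68 and 69 to 140, 722 and 568 with the block and without that library, and at ΔNp63 days 1, 3 and 6 from 15, 344 and 318 to 134, 3712 and 2221. DESeq2 called 562 at ΔNp63 day 1, 582 at day 3 and 488 at day 6. The difference of responses went from 13 to 295 calls and day 0 from 2 to 27. Of the 3 genes most like GPC4, 1 was shared with a prior count of 0.5. At 4 and 5 counts of GPC4 per day 0 group, depth sets the width of its fold changes.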
